A study of Mus musculus with 2 samples.

Results

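Gene end peaks are the sites of open chromatin that lie in the last, untranslated stretch of a gene's transcripts or just beyond it. They were taken from a table of 63316 peaks of an ATAC-seq experiment by 1 rule, an annotation class that begins with Downstream or with 3′ UTR, and the rule uses no measured value. It gave 1815 peaks, of which 842 were 3′ UTR peaks and 973 were downstream peaks. Of the downstream peaks, 345 were classed as under 1 kb from the gene, 336 as 1 to 2 kb and 292 as 2 to 3 kb. The peaks belonged to 1672 genes, of which 1540 had 1 gene end peak, 122 had 2 and 10 had 3, and 1 peak had no gene. Their median width was 287 bp against 301 bp for all peaks, and 1112 of them (61.3%) had the start site of their own gene as the nearest transcription start site (TSS).

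ATAC-seq uses the Tn5 transposase, which inserts sequencing adapters where DNA is open, so that the reads over a region follow how open it is. The 3′ UTR of a gene is the part of the transcript after the stop codon, where microRNAs and proteins that set the stability of the message bind. RNA polymerase runs on past the site at which the transcript is cut and given its poly(A) tail, and the DNA behind a gene can also hold enhancers of that gene or of its neighbours. The regions were therefore read as positions, and the gene named with a peak is the one that the table assigns.

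The cells were primary cardiac fibroblasts from mouse heart, the cells that become matrix-producing, contractile myofibroblasts when exposed to transforming growth factor β (TGF-β). Both libraries came from cells given TGF-β. One was labelled NC, taken here to be the control that the study's legend describes as cells with a scrambled siRNA (the legend does not use that label), and the other was labelled SiPiezo2, from cells given an siRNA against Piezo2, a mechanically gated cation channel. With 1 library for each condition, nothing below has a replicate check, and the conditions were not tested against each other. The series' own design text speaks of Tet3 deletion by Cre virus, and its methods of minced tissue and of a kit that the labels do not name. The groups rest on the sample labels alone.

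The reads behind the densities came out as whole numbers in windows of 2000 bp for 99.99% of the peaks, to within 0.05 of a read. The NC windows held 4615335 reads and the siPiezo2 windows 2754046, or 0.597 of that. A median gene end peak had 57 and 35 reads, close to the 58 and 36 of a median peak. Of the fibroblast markers, 8 of 10 had a promoter or 5′ UTR peak, and of the myofibroblast markers 6 of 6, whereas 1 of 8 cardiomyocyte markers, 1 of 8 endothelial markers and 0 of 8 macrophage and leukocyte markers did. Peaks of any class were found at 7 of 8 endothelial markers, with a summed density of 644 in NC and 648 in siPiezo2. For cardiomyocyte markers this was 3 of 8, with 146 and 152. Mesothelial and epicardial markers had one at 3 of 5 genes (Msln, Tbx18 and Upk3b), with a summed density over all their peaks of 244 in NC and 240 in siPiezo2, and Schwann and neural markers at 1 of 4 (Ncam1), with 226 and 165. Smooth muscle and pericyte markers had a promoter or 5′ UTR peak at 4 of 8 genes, and the summed density of all their peaks was 734 in NC and 604 in siPiezo2. The knockdown itself acts on the Piezo2 transcript, which ATAC-seq does not measure.

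The comparison of siPiezo2 with NC asks how loss of the channel changes open chromatin in activated fibroblasts. In the authors' normalized read densities, gene end peaks were somewhat less open in the siPiezo2 library, to about the same extent as introns and intergenic DNA and more than promoters, although their median rose above 0 in 1 of the other scalings below. The log2 ratio, log2((siPiezo2 + 1)/(NC + 1)), had a median of -0.15 over the gene end peaks (quartiles -0.42 and 0.09) and of -0.13 over all peaks. It was -0.17 at 3′ UTR peaks and -0.14 at downstream peaks, against -0.17 at intron peaks, -0.18 at distal intergenic peaks, -0.09 at exon peaks, -0.04 at 5′ UTR peaks and -0.03 at promoter peaks, the class within 1 kb of a TSS. Fewer cells with an open site and a less open site in each cell cannot be told apart in these bulk libraries.

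Past 1.5-fold, 285 gene end peaks (15.7%) were lower in siPiezo2, below 0.66 of NC, where 13.5% of all peaks were. Another 47 (2.59%) were higher, above 1.5 of NC, where 3.21% of all peaks were. Below 0.5 of NC there were 73 (4.02%) against 2.76% of all peaks, and above 2 there were 3 (0.165%) against 0.504%. The share of lower peaks was thus a little above that of all peaks and the share of higher peaks a little below it. Of the gene end peaks past either 1.5-fold threshold, 85.8% were lower. This split depended on the scaling. It was 99.6% for the recovered reads without scaling, 74.7% with both libraries at the same total density, 64.2% with median-of-ratios scaling, which moved the median of all peaks to 0, and 56.6% with the recovered reads at the same total, which moved it to 0.02 and the median of gene end peaks above 0, to 0.0077. In the last 3 of these scalings, in that order, the share of lower gene end peaks was above the share of all peaks, at 12.1% against 9.97%, 9.48% against 8.27% and 9.97% against 7.67%.

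**Figure D1:**
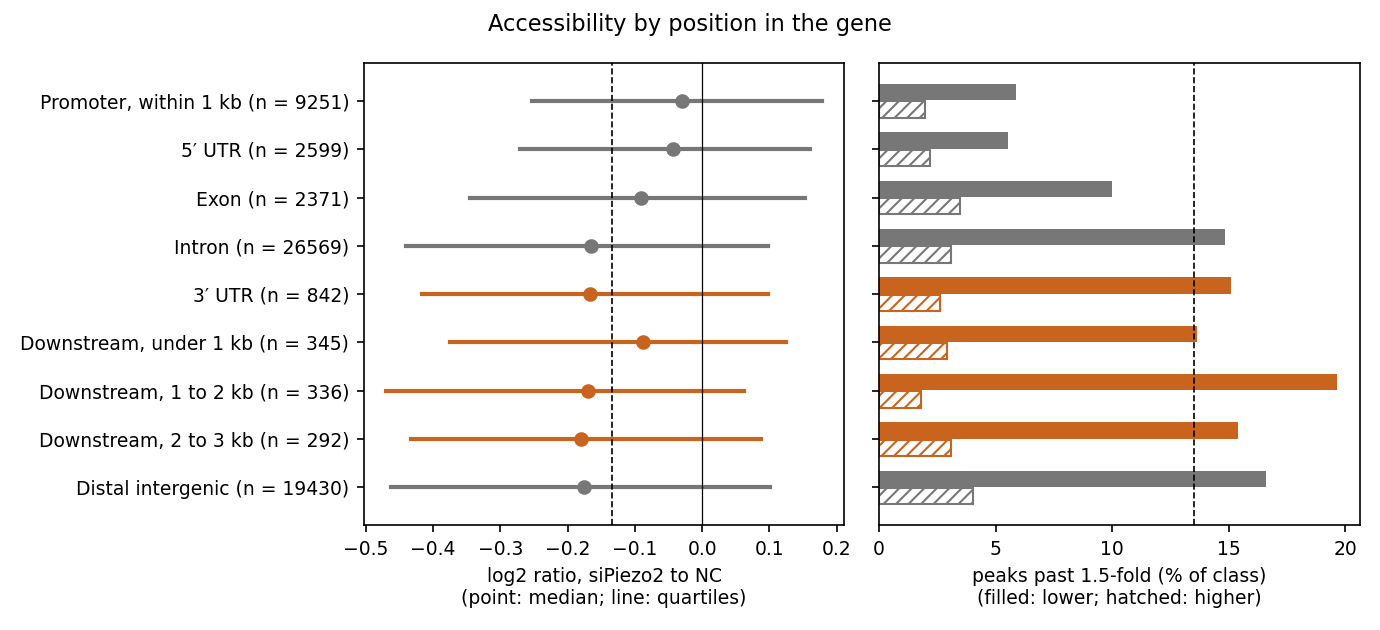
Log2 ratio of siPiezo2 to NC (left; points are medians, lines join the quartiles) and the percentage of peaks past 1.5-fold (right; filled bars lower, hatched bars higher) for each annotation class, with gene end classes in orange. Dashed lines mark all peaks, at a median of -0.13 and at 13.5% lower; of the gene end classes, downstream peaks at 1 to 2 kb had the most lower peaks, 19.6%.

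The share of lower peaks varied along the gene end, more than it did between gene end peaks and all peaks. Peaks within 1 kb past the end of the listed transcript had a median of -0.08 and 12.9% of them were lower past 1.5-fold, those at 1 to 2 kb -0.16 and 19.6%, and those at 2 to 3 kb -0.17 and 15.8%. Inside the gene the medians were -0.16 within 1 kb of the end, -0.17 at 1 to 3 kb and -0.17 farther in. The 66 gene end peaks within 1 kb of any TSS, where another gene often starts, had a median of -0.25, with 16 lower (24.2%) and 0 higher, while promoter peaks as a class had 5.86% lower. The 703 peaks over 10 kb from any TSS had a median of -0.13, with 116 lower (16.5%).

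Most gene end peaks had been called in the NC library alone. There were 1288 of these (71.0%, against 64.0% of all peaks, 70.7% of intron peaks and 70.5% of distal intergenic peaks), 496 called in both libraries and 31 called in siPiezo2 only. A peak is more easily called where it has more signal, so the split leans to the direction of the ratio by construction. The median log2 ratio was -0.23 for those called in NC only, -0.0078 for those called in both and 0.50 for those called in siPiezo2 only. The share of lower peaks followed density in no simple way. By mean density, from the weakest of 4 equal groups to the strongest, 17.4%, 11.9%, 15.9% and 17.6% of gene end peaks were lower past 1.5-fold, and the medians were -0.22, -0.10, -0.12 and -0.19. Among the 908 gene end peaks at or above their own median density, 152 (16.7%) were lower past 1.5-fold, where 11.5% of all peaks of that strength were, and 47 (5.18%) were below 0.5 of NC, where 2.37% were. Below 0.5 of NC the shares of the 4 groups were 3.30%, 2.42%, 3.09% and 7.27%.

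Among the lowest ratios of the stronger members were those behind Acta2, Thbs1 and Fn1, genes of contraction and of the extracellular matrix. Acta2 encodes smooth muscle α-actin, the actin of myofibroblast stress fibres. Its gene end peak, at chr19:34218131-34218346, 252 bp past the end of the transcript, had a density of 63.3 in NC and 7.81 in siPiezo2, from 151 and 12 reads. The log2 ratio was -2.87, with an exact binomial (Clopper-Pearson) 95% interval of -4.11 to -2.28 from the reads. Such intervals are on the ratio without the pseudocount and cover counting error only. Acta2 is also made by smooth muscle cells, whose markers had the summed densities given above, and their part in this value was not tested.

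Thbs1, thrombospondin 1, a matrix protein that can activate latent TGF-β, had 3 gene end peaks on chromosome 2, centred 791, 1352 and 2016 bp past its end. Their densities were 114 in NC and 34.9 in siPiezo2, 136 and 41.4, and, for the last, 109 in NC, with log2 ratios of -1.68, -1.69 and -1.83. All 3 windows overlap, and the last, at chr2:117959345-117959915, was the lowest (283 and 45 reads, -2.37 to -1.43). The start site nearest to these peaks, 3877 to 5102 bp away, is that of another gene, without a symbol.

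Fn1, which encodes fibronectin, the scaffold on which collagen is laid down, had 2 gene end peaks on chromosome 1. The nearer one, at chr1:71622502-71622824, had densities of 53.3 and 15.4 (130 and 24 reads, log2 ratio -1.73, -2.54 to -1.21), and the farther one 55.1 and 16.7 (135 and 26 reads, -1.67), and their windows overlap. Lox, the enzyme that cross-links collagen and elastin, had 2 with overlapping windows on chromosome 18, with densities of 39.3 and 14.5 (ratio -1.38) and of 40.4 and 15.2 (-1.36). Both Lox peaks are nearest to the start of the predicted gene Gm41724. Timp3, an inhibitor of matrix metalloproteinases, had a 3′ UTR peak at chr10:86182231-86182554 with densities of 32.0 and 8.79 (74 and 14 reads, -1.75, -2.88 to -1.11).

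Both genes of cytoplasmic actin showed the same direction. Actg1, γ-actin, had 1 peak in the whole table, at chr11:120234145-120235472 behind the gene, with densities of 144 in NC and 49.9 in siPiezo2 (388 and 73 reads, log2 ratio -1.51, -1.93 to -1.18). Actb, β-actin, had downstream peaks with 110 and 47.9 (292 and 71 reads, -1.18) and with 109 and 55.6 (291 and 82 reads, -0.96), in overlapping windows. Cap1, whose protein recycles actin monomers, had a 3′ UTR peak with 81.5 and 41.8 (ratio -0.95, -1.41 to -0.57).

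**Figure D2:**
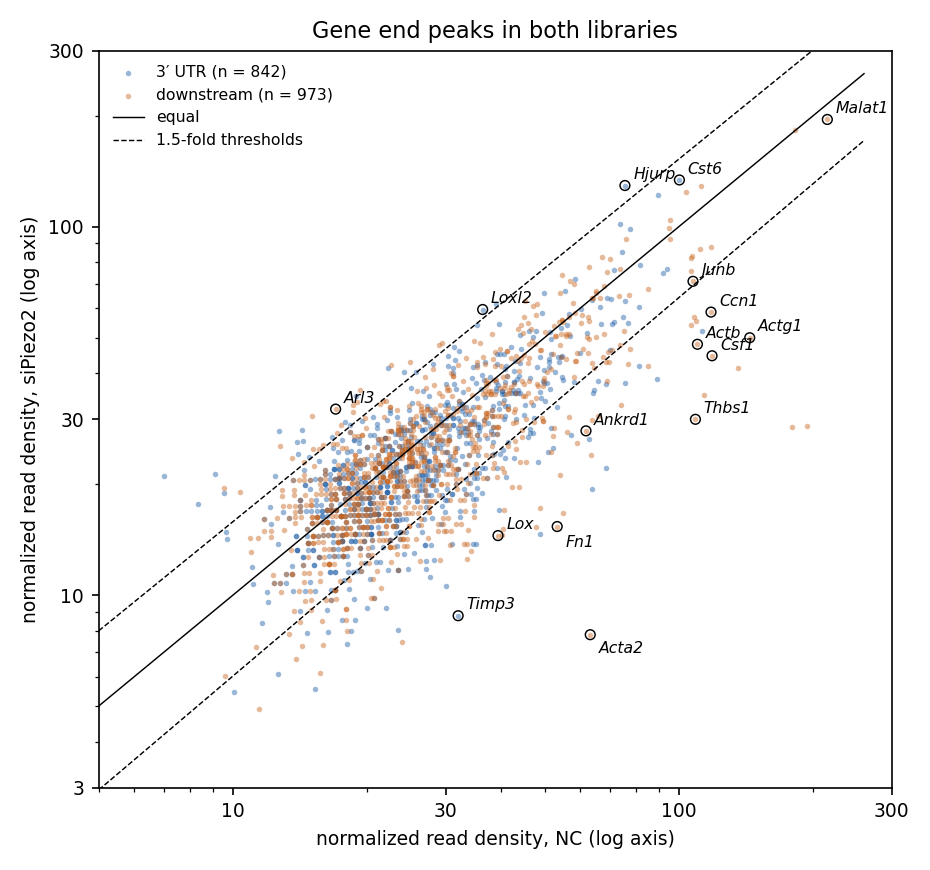
Normalized read density of each of the 1815 gene end peaks in NC (horizontal, log axis) and siPiezo2 (vertical, log axis), 3′ UTR peaks in blue and downstream peaks in orange; the solid line marks equal density and the dashed lines the 1.5-fold thresholds. For each named gene 1 peak is circled: Thbs1, Actg1, Csf1 and Acta2 (63.3 and 7.81) lie far below the lower threshold, while Malat1 lies near the line of equal density.

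Other peaks among the 10 lowest belonged to genes outside the lists of contraction and matrix. Ncbp3, a cap-binding protein, had a 3′ UTR peak with densities of 64.0 and 19.4 (ratio -1.67), 2211 bp from the start of Itgae. Cep170, a centrosomal protein, had one with 48.7 and 14.7 (-1.67) that lies 40395 bp inside the listed gene span. Ephb2, a receptor tyrosine kinase for ephrin B ligands, had 68.6 and 22.1 in its 3′ UTR (172 and 34 reads, -1.59, -2.24 to -1.13). Vamp8, a SNARE of vesicle fusion, had 47.9 and 15.3 behind the gene (-1.59), 2960 bp from the start of its neighbour Vamp5. Cemip, which acts in the breakdown of hyaluronan, had 48.8 and 17.2 (-1.45). All of these intervals lay below the median of all peaks, -0.13.

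Read by gene list, most lower peaks were in none of the lists, but the lists of myofibroblast, matrix, actin, SRF, YAP with TEAD, focal adhesion, growth factor, Wnt and Notch, chromatin, smooth muscle and housekeeping genes each had a larger share of lower gene end peaks than the 13.5% of all peaks, on small numbers. The lists were chosen with results of these data known and share genes, so their counts are descriptions and are not independent of each other. Of the 15 myofibroblast markers, 5 had a gene end peak, with 9 peaks in all, of which 8 were lower past 1.5-fold, and the median was -1.68. The other peaks of that list had a median of -0.47. The 9 peaks stand on 5 separate windows, of which 4 were lower. Tnc, tenascin C, was the member not past the threshold, at 45.4 and 30.1 (-0.58).

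Targets of serum response factor (SRF) and its myocardin-related cofactors, which respond to free actin, had 14 gene end peaks with 8 lower and a median of -0.76, against -0.25 at the other peaks of the list. Genes and targets of YAP, TAZ and TEAD, the transcriptional regulators of the Hippo pathway, had 10 with 5 lower and a median of -0.76, against -0.17. On separate windows the SRF list had 5 of 11 lower with a median of -0.59 and the YAP and TEAD list 2 of 7 with -0.37, and Ankrd1 and Ccn1 made up all 5 lower peaks of the latter. Ankrd1, a stress-induced ankyrin repeat protein, had 3 downstream peaks with densities of 61.9 and 27.9, 64.0 and 29.9, and 51.5 and 24.4 (ratios -1.12, -1.07 and -1.05, windows overlapping). The start site nearest to them, 3637 to 4565 bp away, is that of another gene, without a symbol. Ccn1, a secreted matricellular protein, had peaks with 118 and 58.6 (317 and 86 reads, -0.997) and another at -0.96 whose window overlaps it. Of the factors themselves, Tead4 had a 3′ UTR peak with 23.7 and 20.4 (-0.21, -0.90 to 0.41).

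Structural genes of the extracellular matrix had 12 gene end peaks with 6 lower (median -0.75), matrix processing enzymes 12 with 6 lower and 1 higher (-0.56), and actin cytoskeleton genes 17 with 9 lower (-0.64). On separate windows these were 3 of 9 (-0.51), 4 of 10 (-0.28) and 7 of 14 (-0.54). Their other peaks had medians of -0.23, -0.19 and -0.27, with 17.2%, 17.6% and 21.6% lower. Beyond Thbs1 and Fn1, Sparc, a collagen-binding glycoprotein, was the remaining lower peak of the matrix list, with a log2 ratio of -0.92. The higher one, in the 3′ UTR of the cross-linking enzyme Loxl2, had a density of 36.3 in NC and 59.6 in siPiezo2 (92 reads in each, ratio 0.70, 0.28 to 1.15), opposite to Lox. Focal adhesion genes had 5 gene end peaks with 2 lower, at Tns1 (44.0 and 22.9, -0.91) and Tln1 (44.5 and 26.8, -0.71), which encode tensin and talin, links between integrins and actin. The Tln1 peak is nearest to the start of Tpm2, a tropomyosin gene.

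**Figure D3:**
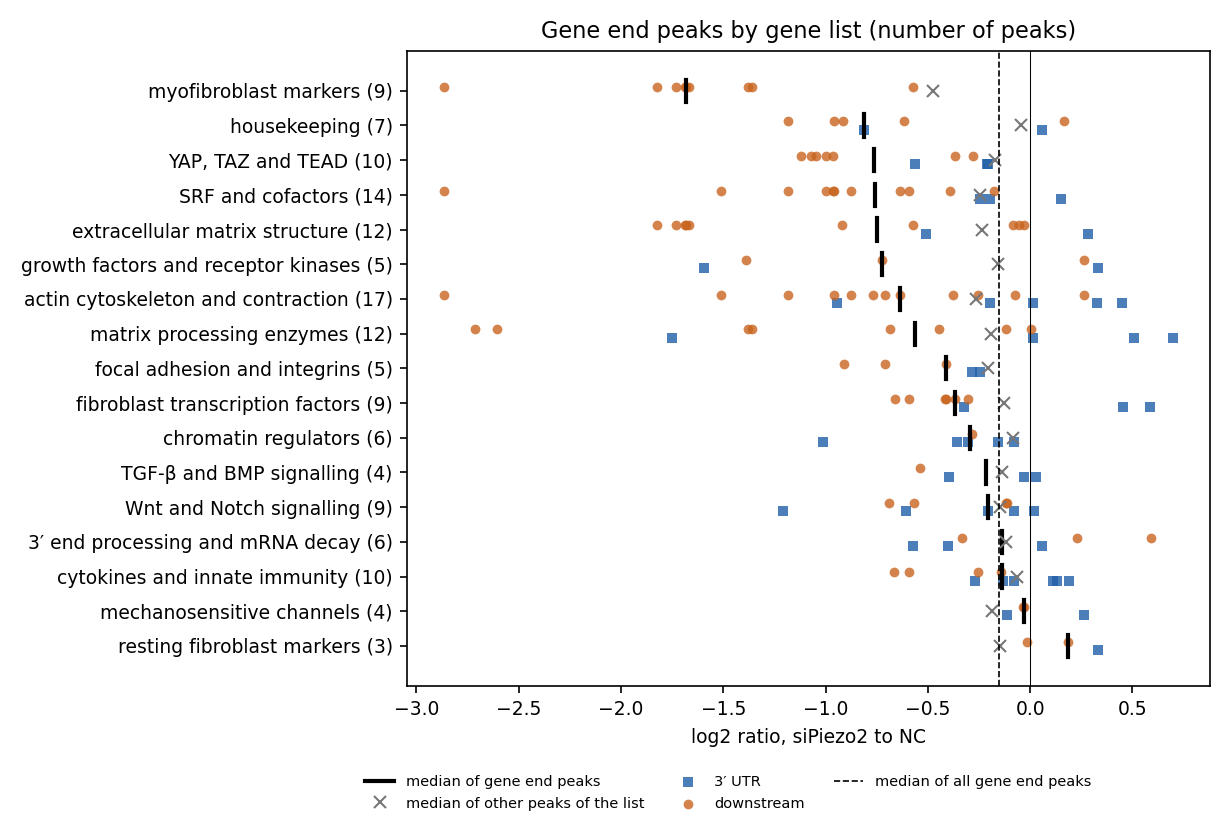
Log2 ratio of siPiezo2 to NC of each gene end peak (squares, 3′ UTR; circles, downstream) in the 17 gene lists with at least 3 such peaks, ordered by their median (black bar); crosses mark the median of the lists' other peaks and the dashed line the median of all gene end peaks, -0.15. Myofibroblast markers lie lowest, at -1.68, and in the matrix, actin, YAP and SRF lists the lowest value is a circle.

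Within these lists a larger share of the downstream than of the 3′ UTR peaks was lower, a split seen only after the values were known and given with no test. The lists of myofibroblast markers, matrix structure, matrix processing, actin, focal adhesion, YAP with TEAD, and SRF hold 307 genes together and had 59 gene end peaks, of which 27 (45.8%) were lower past 1.5-fold and 1 was higher. Of their 42 downstream peaks 25 (59.5%) were lower, with a median of -0.82, while 2 of their 17 3′ UTR peaks (11.8%) were, with a median of -0.20. Timp3 and Cap1 were those 2. Over all genes the shares were 16.2% of the downstream and 15.1% of the 3′ UTR peaks. The list peaks whose windows overlap that of another were all downstream. On separate windows 15 of 31 downstream peaks of the lists were lower (48.4%), with a median of -0.59, the 3′ UTR counts stayed as given, and 17 of 48 were lower in all (35.4%). The other 1756 gene end peaks had 258 lower (14.7%) and a median of -0.15. Most of the 285 lower gene end peaks thus belonged to genes outside the lists, at a share close to the 13.5% of all peaks.

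Signalling ligands and receptors gave a mixed picture. Growth factors and receptor kinases had 5 gene end peaks with 3 lower. Csf1, the growth factor of macrophages, had the strongest of them, with a density of 119 in NC and 44.6 in siPiezo2 (315 and 66 reads, ratio -1.39, -1.83 to -1.04), and Gas6 and Ephb2 were the others. Wnt and Notch genes had 9 with 3 lower, in the Notch-responsive repressor Heyl (62.8 and 26.6, -1.21, -1.80 to -0.76), the ligand Wnt2b (35.1 and 21.4, -0.69) and the receptor Notch4 (58.1 and 37.8, -0.61). Ror2, a Wnt receptor, had a ratio of 0.02, and a second Heyl peak -0.08. TGF-β and BMP signalling had 4 with 0 past either threshold and a median of -0.21, and mechanosensitive channels 4 with 0 past either threshold and a median of -0.03, or 0.10 with median-of-ratios scaling.

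Transcription factors of fibroblast activation had 9 gene end peaks with 1 lower, behind the forkhead gene Foxs1 (47.3 and 29.5, -0.66, -1.22 to -0.20). Junb, a subunit of AP-1, had a strong downstream peak just above the threshold, with 108 in NC and 71.0 in siPiezo2 (290 and 104 reads, -0.59, -0.94 to -0.28). Spi1, which encodes PU.1, the factor of myeloid cells, had a 3′ UTR peak with 19.4 and 29.6 (46 and 48 reads, 0.58, -0.0040 to 1.23). Of the 8 macrophage and leukocyte markers, 4 had a peak of any class, Spi1 included, with a summed density of 236 in NC and 225 in siPiezo2, and Adgre1, Cd68, Lyz2 and Cd3e had none. Cytokine and innate immunity genes had 10 with 1 lower, at Nfkbiz, the gene of an inducible NF-κB cofactor (68.6 and 42.8, -0.67), and chromatin regulators 6 with 1 lower, at the histone methyltransferase gene Kmt2a (24.7 and 11.7, -1.01).

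Genes that themselves act at message ends, in 3′ end processing and mRNA decay, had 6 gene end peaks with 0 lower and 1 higher, at Tob2, whose protein recruits a deadenylase (19.8 and 30.3, 0.59, 0.01 to 1.22). Resting fibroblast markers had 3 with 0 past either threshold and a median of 0.19, cell cycle genes 2 with values of 0.03 and 0.06 behind Btg2, and cytosolic ribosomal protein genes 2 with -0.54 and 0.20. The housekeeping list stood out from this group, with 5 of 7 lower (3 of 5 on separate windows) and a median of -0.81 against -0.04 at its other peaks. Among the lower ones were the Actb peaks and a weak 3′ UTR peak of Tbp (32 and 13 reads, -0.81, -2.01 to 0.02). Of the markers of other cell types, smooth muscle and pericyte genes had 1 gene end peak, in the 3′ UTR of Rgs5 (20.0 and 9.21, -1.04), and cardiomyocyte, endothelial, mesothelial and Schwann cell markers had 0.

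Few gene end peaks were more open in siPiezo2 past 1.5-fold, and of the 47, 23 were among the stronger members. The 10 highest of the stronger members had log2 ratios between 0.73 and 0.87. Highest was Arl3, a small GTPase of cilia (17.0 in NC and 32.0 in siPiezo2, 40 and 52 reads, 0.87, 0.30 to 1.55), followed by the predicted gene Gm29682 (19.3 and 36.0, 0.87), P2ry14, a receptor for UDP-sugars (22.3 and 41.4, 0.86), and the sorting nexin gene Snx33 (22.7 and 42.0, 0.86). The others were Cmpk2 (0.84), Gorab (0.79), Cldn13 (0.79), Hjurp (0.76), Or13e8 (0.76) and Sncb (0.73). Hjurp, the chaperone that loads the centromeric histone, had by far the densest of these peaks. Its 3′ UTR peak at chr1:88190033-88190461 had a density of 75.7 in NC and 129 in siPiezo2 (206 and 188 reads, 0.48 to 1.06), and its promoter and 5′ UTR signal was also higher, with a ratio of 0.97. The 3 gene end peaks above 2 of NC were 3′ UTR peaks too weak to be among these 10, at Or5a1 (7.02 and 21.1, ratio 1.46), Ube4b (9.10 and 21.3, 1.15) and Aak1 (12.7 and 27.8, 1.08), named here after their values were seen. Summed over all its gene end peaks, Ube4b had a ratio of 0.23.

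The strongest gene end peaks of all by the mean density of both libraries were about equal in both. Malat1, the nuclear long noncoding RNA whose end is processed without a poly(A) tail, had a downstream peak with 215 in NC and 195 in siPiezo2 (626 and 267 reads, -0.14, -0.35 to 0.07) and another with 182 and 183 (0.01). With the recovered reads at the same total these became -0.48 and -0.30, since the authors' fit adds 0.174 to the log2 ratio per unit of mean log2 density and so acts most on the strongest peaks. The cysteine protease inhibitor gene Cst6 had 100 and 134 in its 3′ UTR (0.41, 0.14 to 0.69), and the predicted genes Gm56841 and Gm26826 had ratios of 0.20 and 0.25. A rank by mean density disfavours peaks that are much lower in siPiezo2, so these peaks cannot show how the ratio goes with density in NC. Other peaks dense in NC had low ratios, among them those of Actg1 (144 in NC, -1.51), Thbs1 (136, -1.69) and Csf1 (119, -1.39). Peaks with a high density in NC thus included both about equal and much lower ones.

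Of the 1672 genes, 849 also had a promoter or 5′ UTR peak, which allowed the ends of a gene to be set against its start. Summed over each gene, the median log2 ratio was -0.17 at the end and -0.04 at the promoter, and the end was below the promoter in 501 genes (59.0%). The end was lower past 1.5-fold in 131 genes (15.4%) and the promoter in 42 (4.95%), both in 12. The promoter was lower in 9.16% of the genes with a lower end and in 4.18% of the rest. Across genes, which are not independent replicates, the ratios at both places had a Pearson r of 0.18 and a Spearman rho of 0.12. Low counts at both places widen the scatter, and the libraries are the same at each.

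At several named genes the promoter stayed near its NC level where the end did not. Most of the named genes were chosen by the ratio at their end, so the gap to the promoter is in part set by that choice. Over all 849 genes with both, the medians were -0.17 at the end and -0.04 at the promoter. At Thbs1 the promoter and 5′ UTR signal was 88.0 in NC and 77.4 in siPiezo2 (ratio -0.18), against 358 and 106 summed over its gene end peaks (-1.74). Fn1 had 86.1 and 71.7 at the promoter (-0.26) against -1.73 at the end, Csf1 60.1 and 49.4 (-0.28) against -1.39, and Ankrd1 73.4 and 75.4 (0.04) against -1.10. Timp3 had 46.0 and 47.4 (0.04) against -1.75. Of the 27 genes drawn with both, 4 were lower past 1.5-fold at the start as well. Acta2 had 102 and 35.4 (-1.50), Lox 109 and 60.5 (-0.84), and Ccn1 83.7 and 52.2 (-0.67), each with a lower ratio still behind the gene, and Foxs1 95.9 and 57.8 (-0.72), which was slightly below its end. Over the 37 genes of the combined lists with both kinds of peak, the median was -0.37 at the end and -0.20 at the promoter, and the end was below the promoter in 21.

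**Figure D4:**
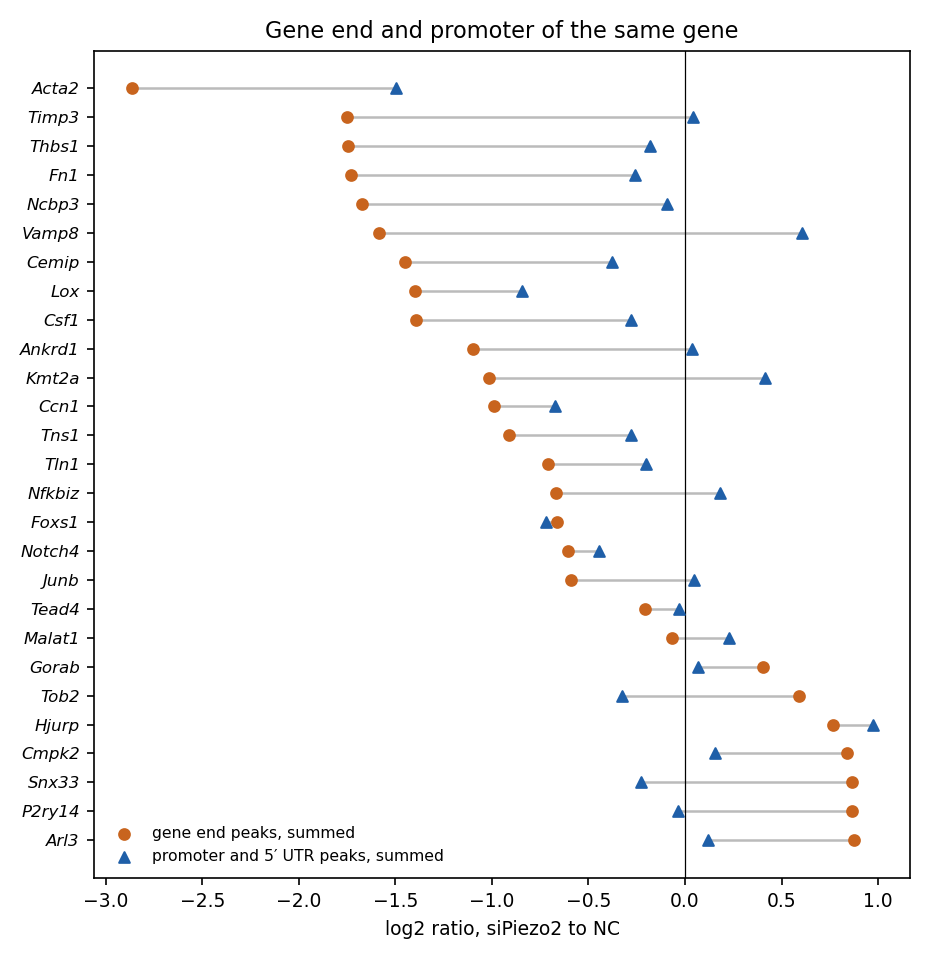
Log2 ratio of siPiezo2 to NC of the summed gene end peaks (circles) and of the summed promoter and 5′ UTR peaks (triangles) of 27 named genes that had both, ordered by the gene end. Triangles of Thbs1 (-0.18), Timp3 (0.04) and Ankrd1 (0.04) lie near 0 while their circles lie at -1.74, -1.75 and -1.10. Acta2 is low at both. Most of the genes were chosen by the ratio at their end, so the gap between circle and triangle is in part set by that choice.

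The class of downstream peaks is not even between the strands. Of the 973, 891 (91.6%) were assigned to genes on the - strand and 82 to genes on the + strand, while 3′ UTR peaks were 454 and 388 and all genes that the table names 8359 and 8585. Peaks outside any listed gene whose centre lies within 3 kb past a gene end numbered 1137 past - strand ends alone, of which 844 were classed downstream, 293 promoter and 0 distal intergenic. Past + strand ends alone there were 865, of which 24 were classed downstream, 304 promoter and 537 distal intergenic. Past - strand ends each such peak was thus classed downstream or promoter, while past + strand ends most carried another name. Col1a1, Col1a2 and Ccn2 lie on the + strand, and their ends fall under that name.

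**Figure D5:**
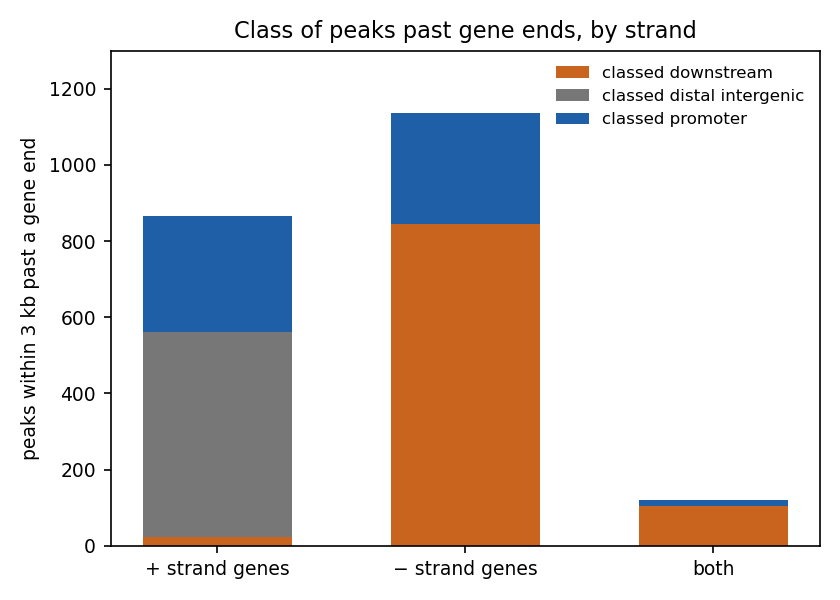
Number of peaks outside genes and within 3 kb past a gene end, for ends of + strand genes only, - strand genes only and both, stacked by annotation class. Past - strand ends 844 of 1137 were classed downstream; past + strand ends 537 of 865 were classed distal intergenic.

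The 537 distal intergenic peaks behind + strand genes, a set made after the class counts were seen, had values close to those of the downstream peaks. Their median log2 ratio was -0.18, 88 (16.4%) were lower past 1.5-fold and 11 (2.05%) higher, against 158 (16.2%) and 25 (2.57%) of the downstream peaks. The lowest of the stronger ones lay behind Col1a1, the gene of the main collagen chain, at chr11:94846030-94846284, 2289 bp past its end, with a density of 103 in NC and 24.5 in siPiezo2 (265 and 37 reads, -2.03, -2.64 to -1.61). Next came Ccn2, connective tissue growth factor, at 903 bp, with 120 and 34.9 (316 and 52 reads, -1.75, -2.26 to -1.38). Col1a2, the partner chain of type I collagen, had peaks at 1017 and 2001 bp with 35.0 and 13.8 (-1.28) and with 29.9 and 12.5 (-1.20), and the Hippo pathway gene Amotl2 had 73.8 and 29.5 (-1.29). In the same combined lists, 9 of 26 such peaks (34.6%) were lower, with a median of -0.46, against 79 of 511 (15.5%) behind other genes. Gem and Dusp5, with ratios of 0.77 and 0.61, were among the higher ones.

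Genes with several gene end peaks had more lower ones. Of the 274 peaks of genes with 2 or 3, 66 (24.1%) were lower past 1.5-fold and the median was -0.22, but neighbouring windows share reads. Only 43 genes had gene end peaks in separate windows, and at these all peaks were below 0 in 18 genes, all above in 7 and mixed in 18. Among the 10 genes with 3, H3f3b, a gene of the replacement histone H3.3, had downstream peaks with ratios of -1.15, -1.01 and -0.63, the first at 74.2 and 32.8. Zfp451 ranged from -1.28 to 0.16 along its 3′ UTR and Ern1, an endoplasmic reticulum stress sensor, from -0.96 to -0.20. Rbfox2, a splicing factor gene, ranged from -0.05 to 0.05, and Gorab from -0.18 to 0.79. The range along 1 gene was thus wide in some genes and narrow in others, but how much of it is counting error was not tested. The highest Gorab peak, from 45 and 54 reads, had an interval of 0.23 to 1.43.

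Several genes central to the study had no gene end peak by the rule. These were Piezo2, Tet3, Col1a1, Col1a2, Col3a1, Postn, Timp1, Ccn2, Srf, Tead1, Tead3, Wwtr1, Yap1 and Smad3. For Col1a1, Col1a2 and Ccn2, peaks behind the gene are those given above under another class.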

How the data were processed

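ATAC-seq libraries of TGF-β-treated primary cardiac fibroblasts, 1 NC and 1 siPiezo2, were grouped by their labels. The methods and the submitters' processing notes give adapter trimming, BWA 0.7.12, duplicate removal with Picard and MACS2 peaks. The deposited signal columns are read densities per peak that the authors normalized with a line fitted to the log2 ratio against the mean of the log2 densities. The deposited log2 and p-value columns hold the authors' own comparison and were not used. The labels name mm10, but only 291 of 16254 genes (1.79%) start where the GRCm38 annotation puts them, so the build is not settled, coordinates are given as in the table and no sequence was read.

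Members are the peaks classed Downstream or 3′ UTR. Members and gene lists were chosen with earlier results of these data known. Log2((siPiezo2 + 1)/(NC + 1)) was computed per peak. Peaks below 0.66 or above 1.5 of NC were counted, with no filter on low values. Distances run from the peak's centre to the end of the transcript listed with it. Reads per 2000 bp window were recovered from the densities by finding the intercept (-0.248) and slope (0.174) of the fit that make them whole, less 1 read per window, which was taken as a pseudocount. The recovery was tested only on data simulated with the same form of fit, window and added read. That test cannot show whether the 1 read per window is a pseudocount. Exact binomial 95% intervals come from these reads. Peaks in separate windows were kept from the lowest position up.

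Peaks named are the 10 lowest and 10 highest ratios among the members at or above their median density, the 5 strongest, up to 4 per list and direction that are past 1.5-fold with an interval that leaves out the median of all peaks, and those of genes the study names; peaks of some genes that this rule takes in are not reported here. Genes with 3 gene end peaks, the peaks above 2 of NC, Cap1, Sparc, Gas6, Tbp and other members given only by a ratio were named after their values were seen, as were the 7 lists combined and the peaks behind + strand genes. Alternatives covered the pseudocount, the scaling, the fold threshold, peak strength, window overlap, distance to a TSS and distance to the gene end. The work used matplotlib 3.10.9, scipy 1.17.1, pandas 2.3.3 and numpy 2.4.6 under Python 3.11.15.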

Additional observations from a re-analysis of the deposited data

How the results depend on the processing

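The scaling moved the class as a whole. The 285 lower gene end peaks became 172 with median-of-ratios scaling, 181 with the recovered reads at the same total and 1119 with the reads unscaled, an alternative added after seeing the data that keeps the difference in depth, and the 47 higher ones became 96, 139 and 5, with 74 at the same total density. At a threshold of 2-fold 73 were lower and 3 higher, and among the 904 at or above the median density of all peaks 152 and 23. The median of gene end peaks, -0.15, became -0.018 with median-of-ratios scaling, -0.067 at the same total density, 0.0077 with the reads at the same total and -0.72 unscaled, where the median of all peaks was -0.71. For 3′ UTR peaks these were -0.033, -0.083, 0.0077 and -0.72, and for downstream peaks -0.0012, -0.051, 0.0077 and -0.72, so the direction of all 3 medians reversed with the reads at the same total, where the median of all peaks was 0.02. The pseudocount of 0.1, separate windows, peaks over 3 kb from a TSS, peaks within 3 kb of the gene end and gene ends on both strands, the last added after seeing the data, kept each count within 1.5 times, and the medians within -0.17 to -0.13. Of the 55 named peaks under 4 alternatives, 218 of 220 values stayed within the peak's interval, all but the Malat1 peaks with the reads at the same total, and for 17 gene lists 65 of 68 medians stayed within the range set by their own peaks. The medians of the lists for 3′ end processing and mRNA decay, mechanosensitive channels and cytokines changed sign under at least 1 alternative. No paired analysis was possible because there was 1 library per condition. The 57 and 35 reads of a median gene end peak limit the precision of single weak peaks.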
